A study of Homo sapiens with 6 samples.

Results

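Integrins and laminins, the receptors that hold cells to the matrix and a main class of their ligands, were examined in PANC-1 cells with and without the compound labelled CMR. The genes were taken by symbol and not by measured value, in a set chosen with earlier results of these data known. They were 35 of the 58825 genes in the deposited table. The 35 comprised 25 integrin chains (17 alpha and 8 beta) and 10 laminin chains (5 alpha, 3 beta and 2 gamma). Each symbol had 1 row. PANC-1 is an established human pancreatic ductal carcinoma line. The CMR group had 3 libraries, from cells exposed to CMR at 8 µM over 48 h, and the control group 3 libraries, labelled control. The labels give neither the full name of CMR nor what the control cells received, and no allele or transgene in either group. All 6 libraries come from this 1 line. Separate cultures are not stated for any group, so the spread behind each p-value is that among these libraries and may be technical.

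An integrin is a pair of 1 alpha and 1 beta chain that spans the membrane, and the pairing sets which ligand it binds. Laminins are trimers of an alpha, a beta and a gamma chain and form, with type IV collagen, nidogen and perlecan, the sheet of the basement membrane under epithelia. In pancreatic ductal carcinoma, integrins of the beta-1 group and those that contain ITGAV are known for attachment to laminin, collagen, fibronectin and vitronectin, and for signals through focal adhesions.

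Library totals ran from 51147268 to 70129221 counts. Log expression correlated across genes, which are not independent replicates, with r from 0.966 to 0.971 within a group and from 0.914 to 0.939 between groups. Low counts piled up at multiples of 4 (1349 to 1482 genes per library at a count of 4, against 294 to 362 at 5), and steps of 4 counts are used below for the floor of a group at 0. The keratin and mucin markers of ductal carcinoma were present in all libraries, with EPCAM, while CFTR had at most 4 counts. Of the 8 markers on that list 5 fell with CMR, among them KRT8, KRT18 and KRT19. The list of leukocyte markers summed to 65.2 to 80.2 normalised CPM with CMR and to 66.7 to 82.7 in control, nearly all of it CD68, a lysosomal protein gene that other cells also use. CD14 had 32 to 45 counts with CMR and 39 to 58 in control, while CD3E and TYROBP were at 0 in every library and PTPRC had at most 4 counts. The list of 6 fibroblast or stellate cell markers, whose defining members COL1A2, DCN and LUM are matrix genes, summed to 0.484 to 0.985 normalised CPM, which are counts scaled to library size and composition, with CMR and to 2.92 to 8.28 in control. Of these 6, COL3A1 and ACTA2 fell. COL1A2 had 0 counts in all CMR libraries, against 0, 40 and 51 in control libraries 1, 2 and 3. Control library 1 was not free of the list: ACTA2 had 0, 4 and 4 counts with CMR, against 62, 27 and 23 in control, and COL3A1 had 25, 41 and 15 counts with CMR, against 78, 282 and 117 in control. The part of this difference in the results below was not tested, and the numbers of integrins and laminins called are given also with control library 1 as the only control. Endothelial markers summed to at most 0.818 and 0.458, acinar markers to at most 0.348 and 0.137, and adipocyte markers to at most 0.397 and 0.305 normalised CPM with CMR and in control. The acinar marker PRSS1 was called higher, at 17, 15 and 14 counts with CMR against 0 in every control library (edgeR adjusted p = 0.0109). Platelet or megakaryocyte markers summed to at most 1.59 normalised CPM with CMR and 1.87 in control, without a call.

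Integrin and laminin mRNA was lower with CMR in 15 of the 29 members that could be tested, and higher in none. Among them were ITGB1, the beta chain shared by most matrix-binding integrins (1.67-fold lower), ITGB5 and ITGB8, partners of ITGAV (2.07-fold and 3.22-fold lower), and the laminin chains LAMA5, LAMA4 and LAMB1 (2.36-fold, 2.30-fold and 2.31-fold lower). The laminin chain LAMB2 and the fibronectin receptor chain ITGA5 were not called. A gene was tested if it passed edgeR's filter on low counts, and called at a Benjamini-Hochberg adjusted p under 0.05 of edgeR's quasi-likelihood test over all 19200 genes tested. Of those 19200 genes, 38.6% were called, 18.1% lower and 20.5% higher. The members called lower were thus 51.7% of those tested, beside 18.1% of all genes. The median log2 fold change of the 29 tested members was -0.81, against -0.01 for all genes tested. In bulk RNA, less mRNA per cell and fewer cells that carry it cannot be told apart.

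By family, 11 of 20 tested integrins and 4 of 9 tested laminins fell. Neither family had a member called higher in edgeR's test; at an unadjusted p under 0.05 there were 0 integrins and 2 laminins (LAMA2 and LAMB2) higher. DESeq2 called 0 integrins and 1 laminin higher, and limma on voom-transformed counts 0 of either. At least 2-fold lower were 6 integrins and 3 laminins, beside 8.55% of all genes tested. All CMR libraries lay below all control libraries in 16 of the 29 members, where 26.6% of all genes did so, and above them in 2, where 27.3% did. Without control library 2 the count of integrins called lower was 7, and with control library 1 as the only control, whose spread is then assumed to be that of the CMR group, it was 4, with 2 laminins lower. That last setting called 929 genes lower over the whole table, against 3476 with all libraries.

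**Figure D1:**
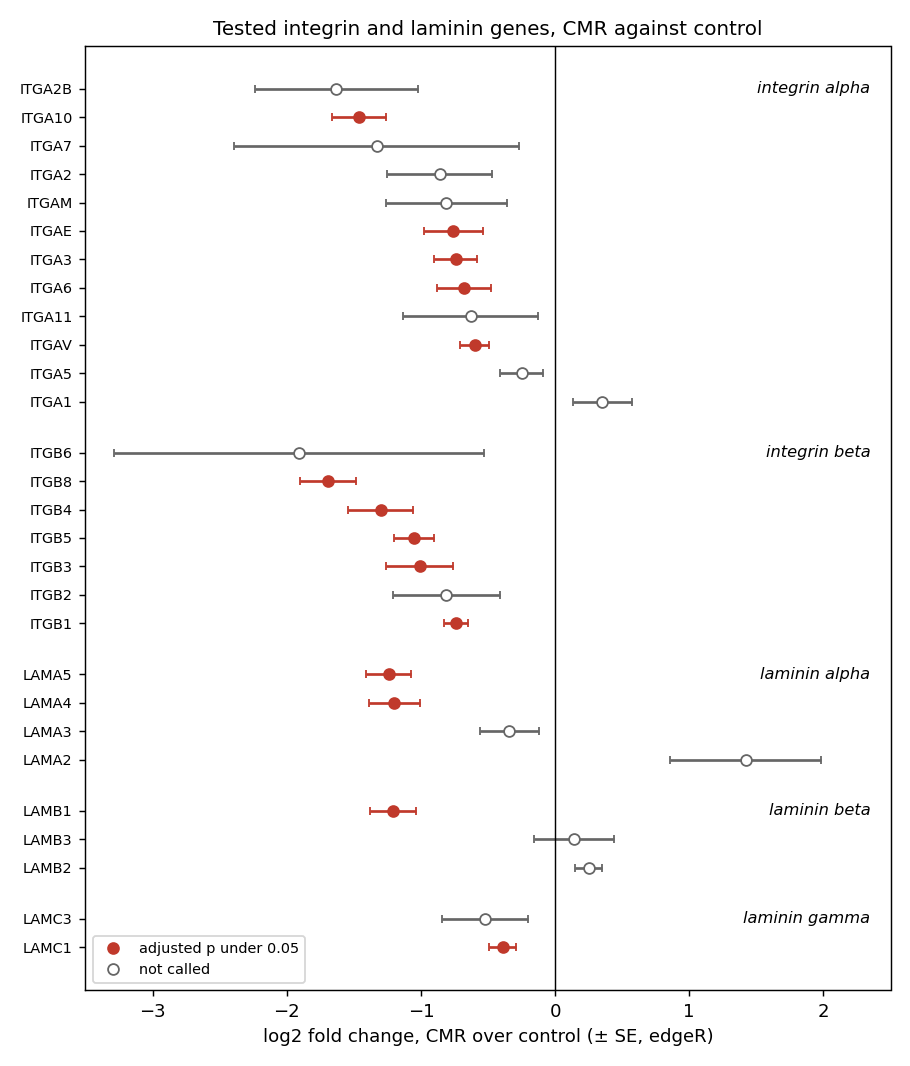
Log2 fold change of CMR over control (x axis, with the standard error of edgeR's fit) for 28 of the 29 tested members, grouped by chain; ITGB7, at 0 counts in every CMR library, is left out. Filled red points were called at an adjusted p under 0.05, and all of these lie left of 0.

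Of the 8 integrin beta chains, 6 fell, with a median log2 fold change of -1.17, and the other 2 were the near-silent ITGB2 and ITGB6. ITGB1, the common partner of the alpha chains for laminin, collagen and fibronectin, had 1248, 1071 and 1002 normalised CPM in the CMR libraries, against 1813, 1857 and 1877 in the control libraries. The groups did not overlap, and the gap between them was larger than the range within either (edgeR log2 fold change -0.74 ± 0.09 SE, adjusted p = 0.000949). In the GRCh38 coordinates of the deposited table, the ITGB1 gene spans bases 32900318 to 33005792 of chromosome 10, minus strand.

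ITGB5, which pairs with ITGAV to bind vitronectin, had 124.5, 109.7 and 82.6 normalised CPM with CMR, against 234, 210.1 and 212 in control. Its highest CMR library stayed well under its lowest control library (edgeR log2 fold change -1.05 ± 0.15 SE, adjusted p = 0.00179). ITGB8, which with ITGAV binds latent TGF-beta, had 4.56, 5.995 and 3.74 normalised CPM with CMR, against 14.9, 17.0 and 14.1 in control. All 3 CMR libraries were under the lowest control value (edgeR log2 fold change -1.69 ± 0.21 SE, adjusted p = 0.000938). Among the members called, this was the largest fall after that of ITGB7.

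ITGB3, the other vitronectin receptor chain that pairs with ITGAV, had 4.89, 5.32 and 2.82 normalised CPM with CMR, against 8.37, 9.17 and 8.76 in control (edgeR log2 fold change -1.01 ± 0.25 SE, adjusted p = 0.0173). Without control library 2 its adjusted p was 0.0552. ITGB4, which pairs only with ITGA6 and anchors hemidesmosomes to laminin, had 8.95, 6.05 and 5.19 normalised CPM with CMR, against 20.0, 15.2 and 14.6 in control (edgeR log2 fold change -1.30 ± 0.24 SE, adjusted p = 0.00533). The groups of both genes were apart. The span of ITGB4 overlaps that of GALK1 on the other strand, which also fell (edgeR log2 fold change -1.16, adjusted p = 0.00391), and reads of the overlap could not be assigned by strand here.

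ITGB7, a partner of ITGA4 and ITGAE on lymphocytes, had 0 counts in every CMR library, against 8, 22 and 16 counts in control, at least 4.48-fold lower in normalised CPM when 12 counts over the pooled CMR group (3 steps of 4 counts) are taken as the floor (edgeR adjusted p = 0.0116). Without control library 2 the adjusted p was 0.0520. Its span overlaps that of ZNF740, which had far more counts and rose (log2 fold change 1.22). ITGB2, the beta chain of leukocyte integrins, had 31 to 74 counts with CMR and 67 to 85 in control and was not called (edgeR adjusted p = 0.157), and its antisense neighbour ITGB2-AS1 fell (log2 fold change -2.19). ITGB6, an epithelial partner of ITGAV, had 0, 14 and 0 counts with CMR and 16, 8 and 22 in control, without a call (edgeR adjusted p = 0.322), and its span overlaps that of AC092153, which had counts in control library 3 alone. Without CMR library 2 it was called (edgeR adjusted p = 0.0257).

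The sequences of 250 bases before and 50 after the RefSeq start (GRCh38.p14) are shown for ITGB1, the most abundant member, and for ITGB5 and ITGB8, the ITGAV partners named first above. They read 5′ to 3′ on the strand of the gene, and capitals mark matches to the motifs described with the laminin promoters.
ITGB1, chr10:32958181-32958480, minus strand: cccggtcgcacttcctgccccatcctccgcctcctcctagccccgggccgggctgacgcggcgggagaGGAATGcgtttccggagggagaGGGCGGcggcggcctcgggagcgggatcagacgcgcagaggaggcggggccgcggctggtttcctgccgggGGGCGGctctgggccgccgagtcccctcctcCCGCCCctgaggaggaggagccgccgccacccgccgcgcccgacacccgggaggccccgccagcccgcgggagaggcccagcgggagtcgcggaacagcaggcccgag
ITGB5, chr3:124901369-124901668, minus strand: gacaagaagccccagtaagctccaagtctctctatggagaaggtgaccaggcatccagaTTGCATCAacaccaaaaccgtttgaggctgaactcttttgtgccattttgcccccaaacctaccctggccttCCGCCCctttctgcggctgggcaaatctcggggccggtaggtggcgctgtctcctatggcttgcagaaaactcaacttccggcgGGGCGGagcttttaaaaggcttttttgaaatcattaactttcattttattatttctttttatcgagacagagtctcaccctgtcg
ITGB8, chr7:20330650-20330949, plus strand: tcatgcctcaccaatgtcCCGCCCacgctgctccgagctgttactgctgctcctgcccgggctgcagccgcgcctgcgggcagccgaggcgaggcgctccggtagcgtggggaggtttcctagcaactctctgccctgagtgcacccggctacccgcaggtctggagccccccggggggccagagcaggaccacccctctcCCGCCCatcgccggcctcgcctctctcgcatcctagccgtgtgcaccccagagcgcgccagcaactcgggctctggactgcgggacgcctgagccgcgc

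**Figure D2:**
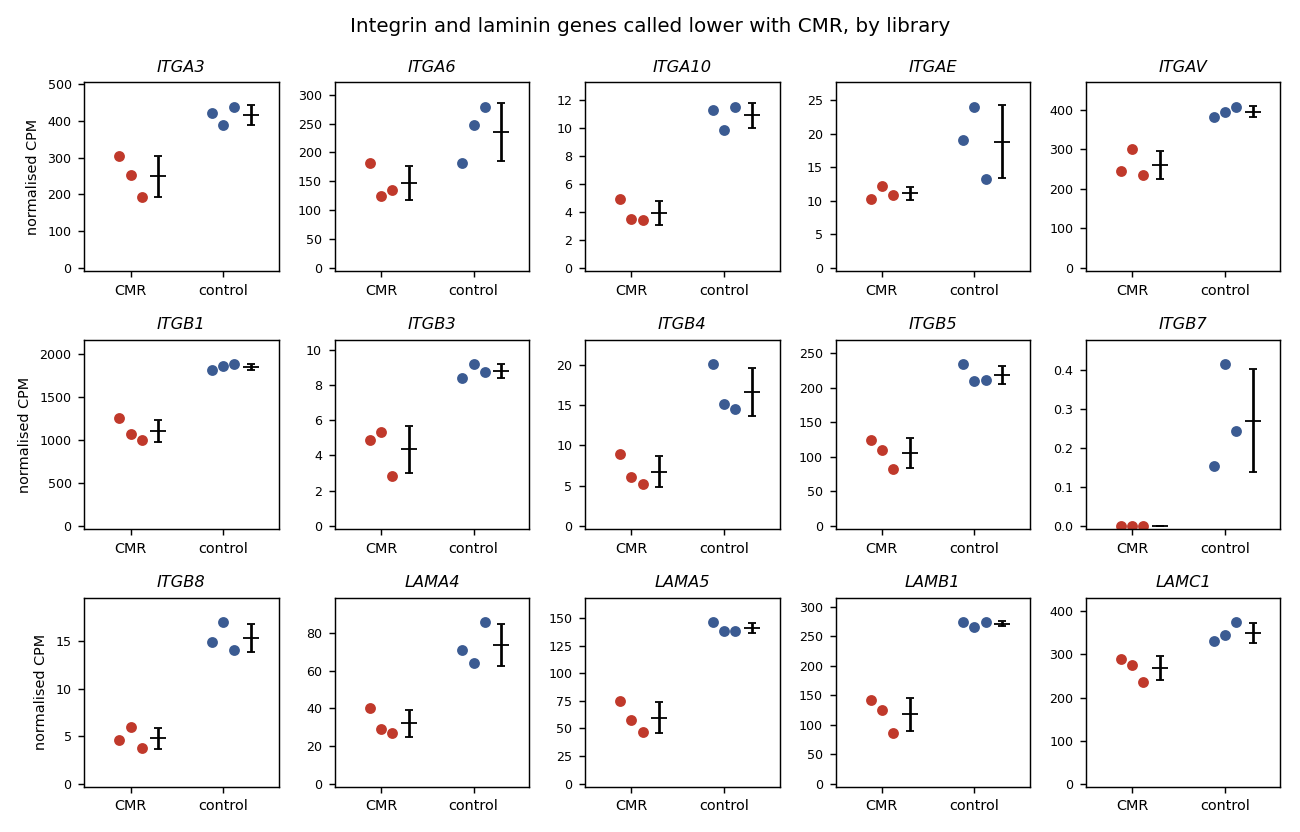
Normalised CPM (y axis, from 0) in each CMR library (red) and each control library (blue) for the 15 members called lower; black bars give the mean and SD of 3 libraries. The groups overlap only in ITGA6, where CMR library 1 (181.4) and control library 1 (181.3) had almost the same value.

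Of the 12 tested alpha chains, 5 fell and none rose, with a median log2 fold change of -0.75. Of the 3 alpha chains grouped here as laminin-binding (ITGA3, ITGA6 and ITGA7), which need not be all that bind laminin, ITGA3 and ITGA6 fell. ITGA3, which with ITGB1 binds laminin, had 303, 253 and 192 normalised CPM in the CMR libraries, against 422, 388 and 439 in control (edgeR log2 fold change -0.74 ± 0.16 SE, adjusted p = 0.00978), with groups that did not overlap. ITGA6, the laminin receptor chain that pairs with ITGB1 or ITGB4, had 181.4, 125 and 136 normalised CPM with CMR, against 181.3, 247 and 279 in control. Control library 1 was at the level of the highest CMR library. The call on ITGA6 (edgeR log2 fold change -0.68 ± 0.20 SE, adjusted p = 0.0301) was lost without CMR library 2 (0.0982), CMR library 3 (0.0950), control library 2 (0.0881) or control library 3 (0.0981). ITGA7, a laminin receptor chain of muscle, had at most 67 counts and was not called (edgeR adjusted p = 0.367), in a span that overlaps those of METTL7B and BLOC1S1, which fell (log2 fold changes -2.36 and -0.56), and of AC009779, which was not called.

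ITGAV, the alpha chain of the vitronectin and latent TGF-beta receptors, had 246, 300.0 and 235 normalised CPM with CMR, against 381, 396 and 409 in control. The groups were apart (edgeR log2 fold change -0.60 ± 0.11 SE, adjusted p = 0.00403). Of its 5 possible beta partners, 4 fell (ITGB1, ITGB3, ITGB5 and ITGB8) and ITGB6 was not called. ITGA5, which with ITGB1 forms the main fibronectin receptor, had 103, 90.7 and 66.4 normalised CPM with CMR, against 103, 96.3 and 111 in control. The groups overlapped, and the log2 fold change of -0.25 ± 0.16 SE was not called (edgeR adjusted p = 0.266). ITGA2B, the alpha chain of the platelet fibrinogen receptor, had 7 to 10 counts with CMR and 11 to 29 in control, without a call (edgeR adjusted p = 0.0727).

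Among the collagen-binding alpha chains, ITGA10 fell. It had 4.95, 3.497 and 3.42 normalised CPM with CMR, against 11.3, 9.85 and 11.5 in control (edgeR log2 fold change -1.46 ± 0.20 SE, adjusted p = 0.00142). All CMR libraries lay far under the lowest control library. ITGA2, the abundant collagen receptor chain of epithelia, had 170.4, 284 and 142 normalised CPM with CMR, against 261, 247 and 573 in control. Control library 3 stood far above the other 5 libraries and CMR library 2 lay above control libraries 1 and 2, and the gene was not called (edgeR log2 fold change -0.86 ± 0.39 SE, adjusted p = 0.123). ITGA1 was the only tested integrin with a positive log2 fold change (0.35 ± 0.22 SE, edgeR adjusted p = 0.267), at 283 to 432 counts with CMR and 229 to 258 in control, and its span overlaps that of PELO, which rose (log2 fold change 1.56). ITGA11, a collagen receptor chain of fibroblasts, had 23 to 29 counts with CMR and 15 to 47 in control and was not called (edgeR adjusted p = 0.374).

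Of the chains best known from leukocytes, ITGAE was the only alpha chain called. It had 10.3, 12.2 and 10.8 normalised CPM with CMR, against 19.1, 24.1 and 13.2 in control, with control library 3 close to the CMR libraries (edgeR log2 fold change -0.76 ± 0.22 SE, adjusted p = 0.0330). The call was lost without any 1 of the 3 CMR libraries (adjusted p from 0.0651 to 0.0895), without control library 1 (0.0884) and without control library 2 (0.106). The span of ITGAE overlaps that of HASPIN, a kinase gene of mitosis on the other strand, which fell (edgeR log2 fold change -1.58, adjusted p = 0.000587) on 404 to 587 counts with CMR and 1119 to 1288 in control. ITGAM, of macrophages and granulocytes, had 14 to 35 counts with CMR and 34 to 50 in control (edgeR adjusted p = 0.202). ITGA4, ITGA8, ITGA9, ITGAL and ITGAX did not pass the filter, with at most 12 counts in any library. When the filter was left out, edgeR called none of these 5 (adjusted p from 0.200 for ITGA8 to 0.765 for ITGA9). A change in them may be missed at this depth. The span of ITGA9 overlaps those of ITGA9-AS1, which was not called, and of NDUFAF4P3.

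Of the 4 tested laminin alpha chains, 2 fell. LAMA5, the broadly expressed alpha chain of epithelial basement membranes, had 75.0, 57.7 and 46.7 normalised CPM with CMR, against 146, 138.0 and 138 in control. Every CMR library was under every control library (edgeR log2 fold change -1.24 ± 0.17 SE, adjusted p = 0.00139). Its span overlaps that of ADRM1 on the other strand, which was not called (edgeR log2 fold change 0.11, adjusted p = 0.382). LAMA4, an alpha chain of vessel and mesenchymal laminins, had 40.1, 28.96 and 26.7 normalised CPM with CMR, against 71.1, 63.9 and 85.7 in control (edgeR log2 fold change -1.20 ± 0.19 SE, adjusted p = 0.00235). LAMA3, the alpha chain of the laminin that ITGB4 binds in skin, had 7.86, 6.44 and 4.76 normalised CPM with CMR, against 7.34, 9.22 and 7.54 in control, with overlapping groups and no call (edgeR adjusted p = 0.273).

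LAMA2, the alpha chain of muscle and nerve laminins, had 52, 87 and 87 counts with CMR and 22, 37 and 10 in control. The groups were apart, and the log2 fold change of 1.42 ± 0.56 SE was not called (edgeR adjusted p = 0.0854), while without control library 2 it was (0.0453). Its span overlaps that of the pseudogene BMPR1AP1, which was not called (edgeR adjusted p = 0.164). LAMA1, the embryonic alpha chain, had 17, 47 and 8 counts with CMR and 4, 0 and 4 in control and did not pass edgeR's filter. DESeq2, which tested it, gave a log2 fold change of 2.96 and an adjusted p of 0.0458. None of the other 6 fits that held the gene called it: edgeR's adjusted p was 0.127 without the filter, 0.0761 to 0.150 with 1 library left out, and 0.357 with control library 1 as the only control.

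The laminin beta chains went different ways in their values, and the difference between chains was not tested. LAMB1 (chromosome 7, bases 107923799 to 108003176, minus strand) had 142, 124 and 86.7 normalised CPM in the CMR libraries, against 274, 267 and 274 in control. All CMR libraries were far under the control libraries, which lay close together (edgeR log2 fold change -1.21 ± 0.17 SE, adjusted p = 0.00169). LAMB2 (chromosome 3, bases 49121114 to 49133118, minus strand) had 73.2, 61.5 and 65.2 normalised CPM with CMR, against 57.1, 54.8 and 56.3 in control. Its CMR libraries were all above its control libraries, but the log2 fold change of 0.25 ± 0.10 SE was not called (edgeR adjusted p = 0.0864). LAMB3, the beta chain that joins LAMA3, had 1.85, 3.15 and 3.33 normalised CPM with CMR, against 3.12, 2.19 and 2.23 in control, with no call (edgeR adjusted p = 0.738).

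On the scale of FPKM, which corrects for gene length so that genes can be compared, LAMB1 averaged 11.95 ± 3.06 with CMR and 29.01 ± 0.385 in control, and LAMB2 7.93 ± 0.843 with CMR and 7.03 ± 0.144 in control (SD, n = 3 each). LAMB1 held 61.4%, 61.6% and 51.3% of the summed FPKM of the 3 laminin beta chains in the CMR libraries, against 79.1%, 79.7% and 79.7% in control. The difference in its mean share, CMR minus control, was -21.38 percentage points, and it ran from -23.13 to -17.97 when any 1 library was left out. LAMB2 held 37.2%, 35.7% and 45.3% with CMR, against 19.4%, 19.2% and 19.2% in control. With 3 libraries in each group an exact two-sided permutation test cannot give a p below 0.1, so shares are given as values.

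**Figure D3:**
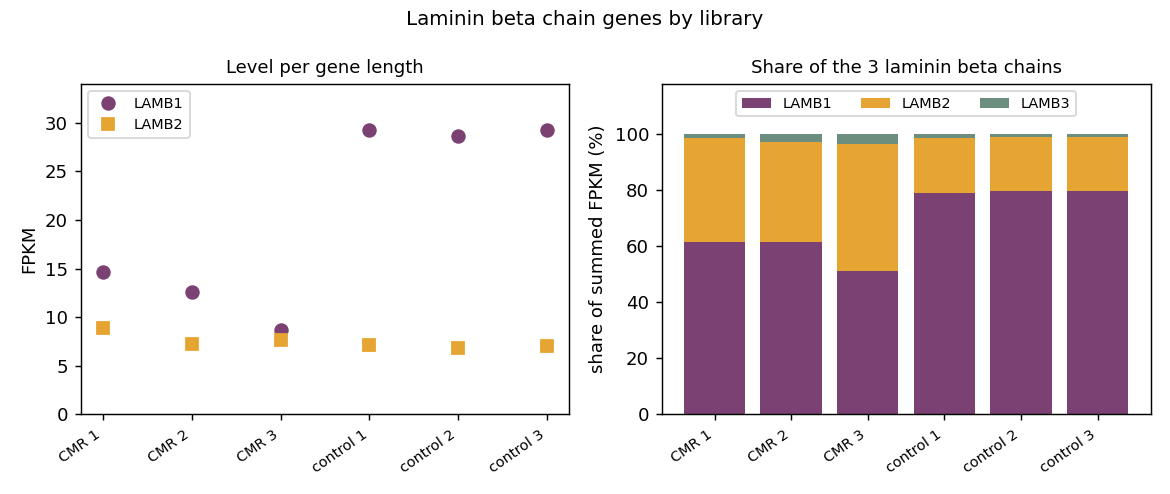
Left, FPKM of LAMB1 and LAMB2 in each library (x axis, CMR libraries first). Right, the share of each beta chain in the summed FPKM of LAMB1, LAMB2 and LAMB3; LAMB1 fills 51.3% to 61.6% of the bar in CMR libraries and 79.1% to 79.7% in control libraries.

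The promoters of LAMB1 and LAMB2 are shown because these genes fill the same place in the trimer and differ in their values, in the same form as above.
LAMB1, chr7:108003112-108003411, minus strand: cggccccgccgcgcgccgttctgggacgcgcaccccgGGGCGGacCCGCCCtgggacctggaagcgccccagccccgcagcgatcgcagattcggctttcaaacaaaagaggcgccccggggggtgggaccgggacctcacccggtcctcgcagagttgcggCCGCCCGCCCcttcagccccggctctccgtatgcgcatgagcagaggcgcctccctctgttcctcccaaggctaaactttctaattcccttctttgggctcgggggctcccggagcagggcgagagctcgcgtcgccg
LAMB2, chr3:49133001-49133300, minus strand: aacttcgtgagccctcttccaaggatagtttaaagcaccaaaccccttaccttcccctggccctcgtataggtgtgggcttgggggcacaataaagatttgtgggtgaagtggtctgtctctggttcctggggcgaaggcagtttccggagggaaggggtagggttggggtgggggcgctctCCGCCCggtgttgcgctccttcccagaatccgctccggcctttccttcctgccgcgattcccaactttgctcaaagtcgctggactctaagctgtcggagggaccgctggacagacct

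RefSeq promoters were matched for 25 of the 35 members by symbol, taking the start nearest to the 5′ end of the deposited gene span where there were several. On both strands 6 motifs were searched: the GC box GGGCGG, the AP-1 site TGANTCA, the TEAD site CATTCC, the TATA box TATAAA, the ATF4 composite site TGATGCAA and the cyclic AMP element TGACGTCA. LAMB1 had 4 GC boxes, with 1 pair of them overlapping, and LAMB2 had 1. A GC box was found in 7 of 12 promoters of members called lower, in 6 of 11 of tested members not called, and in 45.0% of all 35116 RefSeq promoters of that length. An AP-1 site was found in 0 of 12 and in 2 of 11 (ITGA5 and LAMA3), beside 7.71% of all promoters. The TEAD site was found in 2 of 12 (ITGA10 and ITGB1) and in 2 of 11, beside 14%. The ATF4 composite site, found in 0.866% of all promoters, was present in that of ITGB5, in the reverse direction, and the TATA box, found in 11.5% of all, in that of ITGA6. The cyclic AMP element, found in 1.85% of all promoters, was in none of the 23 promoters of tested members. The RefSeq start used for ITGB1 lies 47562 bases from the 5′ end of the deposited span, against 0 to 198 bases for the other 4 genes shown. The start used for LAMA3, 1 of the 2 genes with an AP-1 match, lies 183577 bases away, that of LAMA5 15323 and that of ITGA2B 3840. These matches describe the letters in the window, and no binding was measured.

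LAMC1, the gamma chain of most laminins, had 290.0, 276 and 237 normalised CPM with CMR, against 330.5, 344.5 and 375 in control. The groups did not overlap, but the difference was the smallest of all members called (edgeR log2 fold change -0.39 ± 0.10 SE, adjusted p = 0.0196), and the call was lost without control library 2 (0.0584) or control library 3 (0.0732). LAMC3 had 4.91, 2.66 and 2.36 normalised CPM with CMR, against 5.75, 4.602 and 3.86 in control and was not called (edgeR adjusted p = 0.254). Without CMR library 1 it was called (0.0305).

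Levels per length placed ITGB1 first in both groups, at 151 ± 20.1 FPKM with CMR and 265 ± 4.42 in control (SD, n = 3 each). In control it was followed by ITGAV (41.5), ITGA2 (39.3), ITGA3 (36.6), LAMC1 (35.7), ITGA6 (30.3), LAMB1 (29.01) and ITGB5 (28.95), and neighbours in this order from ITGAV to ITGB5 differed by no more than the larger of their SDs. With CMR, LAMC1 (25.94 FPKM) and ITGAV (25.87 FPKM) followed ITGB1, closer to each other than their SDs. ITGB1 held 90.4%, 90.2% and 92.03% of the summed FPKM of the 8 beta chains with CMR, against 87.8%, 89.0% and 89.2% in control. ITGB5 held 8.32%, 8.52% and 7.00% with CMR, against 10.5%, 9.30% and 9.29% in control. ITGA5 held 11.1%, 9.30% and 9.17% of the summed FPKM of the alpha chains with CMR, against 8.24%, 7.47% and 6.60% in control.

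Summed over chains, integrin alpha chains came to 97.2 ± 16.0 FPKM with CMR and 164 ± 27.9 in control, and integrin beta chains to 166 ± 23.3 with CMR and 299 ± 2.36 in control (SD, n = 3 each). The alpha sums of control libraries 1, 2 and 3 were 145.6, 150.9 and 196.3 FPKM. In the same libraries ITGA2, which was not called, had 28.5, 27.0 and 62.4 FPKM. Laminin alpha chains came to 6.22 ± 1.51 FPKM with CMR and 14.7 ± 0.756 in control, a ratio of 0.424. Laminin beta chains came to 20.4 ± 3.52 with CMR and 36.5 ± 0.591 in control, and gamma chains to 26.3 ± 3.24 with CMR and 36.3 ± 2.14 in control, ratios of 0.558 and 0.725 (SD, n = 3 each). In laminins the alpha chains were thus the scarcest part of the trimer per length in both groups. FPKM is not scaled for composition as normalised CPM is. Over all genes it summed to 228402 to 239732 in the CMR libraries and 242591 to 249649 in the control libraries. Falls with CMR therefore look somewhat larger in FPKM than in normalised CPM.

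**Figure D4:**
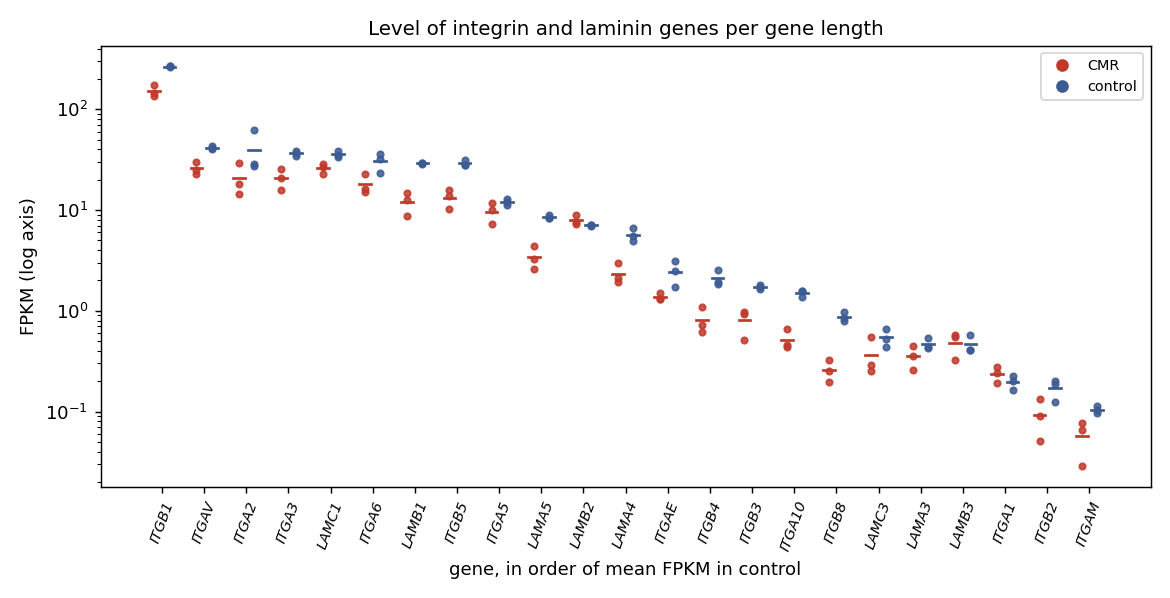
FPKM on a log axis for the 23 members with a mean of at least 0.1 FPKM in control, in order of that mean; points are libraries (red CMR, blue control) and lines are group means. ITGB1 stands above all others in both groups, and LAMB2 is the most abundant member whose CMR points lie above its control points.

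Genes that act with integrins and laminins were examined in the same fit, in 7 lists of 103 symbols. Of these symbols 101 matched a gene and 92 could be tested. CYR61 and CTGF, older names of CCN1 and CCN2 in the same list, had no match. The counts of called genes in the lists are to be read beside the 18.1% of all genes called lower and the 20.5% called higher. Of 22 tested focal adhesion adaptors, which link integrin tails to actin, 11 fell and 3 rose. TNS4, a tensin that binds integrin beta tails, had 3.35, 3.15 and 1.85 normalised CPM with CMR, against 18.7, 24.7 and 19.8 in control (edgeR log2 fold change -2.92 ± 0.26 SE, adjusted p = 0.000296). TNS2, another tensin (log2 fold change -2.15), and VCL, vinculin, which ties talin to actin (-1.94), fell as well. FBLIM1, a filamin-binding adaptor, rose with a wide spread, at 4.59, 3.26 and 10.7 normalised CPM with CMR against 0.879, 0.962 and 1.83 in control (edgeR log2 fold change 2.33 ± 0.52 SE, adjusted p = 0.0110). The other adaptors that rose, chosen after their values were seen, were TLN1, talin, which binds beta tails (log2 fold change 0.35), and ILK, a pseudokinase of adhesions (0.37). The call on ILK was lost without control library 2 (edgeR adjusted p = 0.0521).

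All but 1 of the 6 hemidesmosome genes fell: PLEC, plectin, which joins ITGB4 to keratin (log2 fold change -0.87), CD151, a tetraspanin partner of ITGA3 and ITGA6 (-1.06), the basal keratins KRT5 and KRT14, and DST (-0.76), another linker to keratin. No member rose in edgeR's test, at an unadjusted p under 0.05 (0 higher) or in DESeq2 (0). KRT5 had 0 counts in every CMR library, against 160, 85 and 179 in control, at least 41.3-fold lower in normalised CPM against the floor of 12 counts over the pooled CMR group. KRT14, which has near-identical copies in the genome so that its count is uncertain, had 0, 0 and 4 counts with CMR, against 109, 82 and 114 in control. COL17A1 was not called (edgeR adjusted p = 0.0845).

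Of 13 tested basement membrane genes outside the laminins, 8 fell and none rose in edgeR's test (0 at an unadjusted p under 0.05, 1 in DESeq2), with a median log2 fold change of -0.80. PXDN, a peroxidase that crosslinks type IV collagen, had 3.53, 2.73 and 3.17 normalised CPM with CMR, against 13.9, 12.5 and 14.5 in control (edgeR log2 fold change -2.12 ± 0.17 SE, adjusted p = 0.000183). HSPG2, perlecan, had a log2 fold change of -1.17 and SPARC, a collagen-binding matrix protein, one of -2.03. COL4A5, a type IV collagen chain, had one of -0.93, a call lost without CMR library 2 (0.0617), control library 1 (0.0529) or control library 2 (0.0733). The nidogen NID1, at 25.05 FPKM in control, was not called, with overlapping groups (edgeR adjusted p = 0.195). NID2, at 1.325 FPKM in control, fell (log2 fold change -0.64). COL4A1 (edgeR adjusted p = 0.259), COL4A2 (0.074), COL4A6 (0.314) and NTN4 (0.108) were not called. In control, COL4A1, COL4A2 and COL4A6 had 0.0676, 0.146 and 0.0948 FPKM.

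Laminin receptors outside the integrins fell in 5 of 8 and rose in none in edgeR's test (0 at an unadjusted p under 0.05, 0 in DESeq2), with a median log2 fold change of -1.25. BCAM, which binds LAMA5, had 2.14, 3.37 and 1.13 normalised CPM with CMR, against 12.8, 9.68 and 9.63 in control (edgeR log2 fold change -2.28 ± 0.39 SE, adjusted p = 0.00348). SDC1, a syndecan, had a log2 fold change of -1.30 and CSPG4, a proteoglycan, one of -1.92. DAG1, dystroglycan, was called (edgeR adjusted p = 0.0491) on 33.0, 12.2 and 11.3 normalised CPM with CMR, against 282, 44.3 and 34.4 in control, with control library 1 far above the other 5 libraries. Without control library 1 its log2 fold change was -1.06 (edgeR adjusted p = 0.154), and the call was also lost without any 1 of the CMR libraries.

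Integrin ligands outside the laminins gave 6 of 16 lower, and 3 higher, a share near the 20.5% of all genes. The number lower was 3 without CMR library 2, CMR library 3, control library 2 or control library 3, and the number higher was 5 without CMR library 3. FN1, fibronectin, had 2.347, 2.97 and 1.92 normalised CPM with CMR, against 8.83, 6.98 and 4.75 in control (edgeR log2 fold change -1.50 ± 0.29 SE, adjusted p = 0.00585), and MFGE8, which ITGAV integrins bind, had a log2 fold change of -1.45. VTN, vitronectin, had 4 to 8 counts with CMR and 8 to 37 in control, and its call (edgeR adjusted p = 0.0431) was lost in 5 of the 6 fits that left out 1 library. SPP1, osteopontin, had 23, 26 and 28 counts with CMR, against 0 in every control library, at least 5.49-fold higher in normalised CPM against the same floor over the control group.

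**Figure D5:**
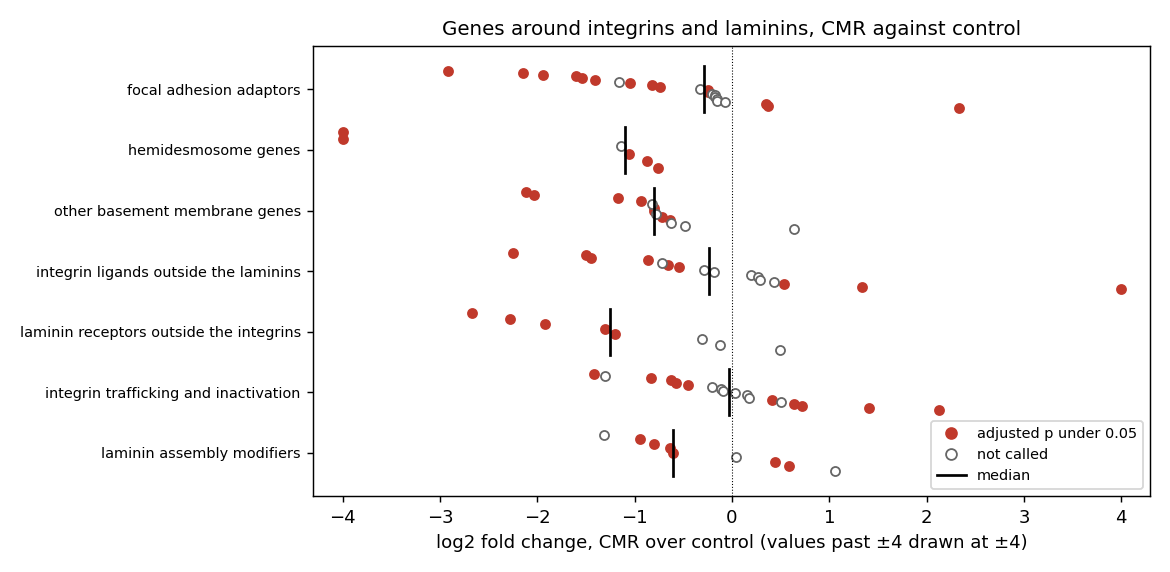
Log2 fold change of CMR over control (x axis) for the 92 tested genes of 7 lists (rows); filled red points were called, open points were not, and the black line is the list's median. Points past 4 in either direction are drawn at 4. The hemidesmosome row has no point right of 0, while the trafficking row has a median near 0.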

How the data were processed

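RNA of PANC-1 cells, isolated on poly-T beads, was sequenced from both fragment ends, according to the labels' protocols. They also speak of adipose material, which matches no other label, and leave unsaid whether the fraction with or without poly(A) went on. Per the file headers, the deposited table gives every gene 1 count and 1 FPKM per library. The count was deposited raw, as whole numbers; the counting tool and its strand setting are not given in the sources used here. FPKM, reads per gene length and library size as the authors deposited it, stands at 0.0001 wherever the count is 0. Bowtie 0.12.2, HISAT2 2.0, StringTie 1.3.0 and a mouse build are named in the submitters' processing notes, but 47519 of 58552 identifiers shared with the human annotation GENCODE release 29 (81.2%) have its coordinates, and coordinates were taken as GRCh38. Of the 35 members, all with identifiers in that release, 12 have exactly its coordinates, so the deposited spans and overlaps may differ from those of the annotation. Columns without a sample numbered 0.

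Counts were tested with edgeR 4.0.16 (R 4.3.3): TMM scaling, filterByExpr (minimum count 10, minimum total 15), glmQLFit and glmQLFTest, and Benjamini-Hochberg adjustment over 19200 genes of 31368 with a count. The SE is the log2 fold change divided by the root of the quasi-likelihood F. The pipeline was tested on simulated counts. Alternatives used DESeq2 1.42.0, limma 3.58.1, other scalings, filters and log2(FPKM + 1) or log2(FPKM + 0.1), and left out each library. Added after seeing the data were counts divided by 4 and control library 1 as the only control. Replicates sharing a number were not taken as pairs (the closing section gives the check). No 2 libraries were copies: their counts differed beyond sampling noise in every pair.

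The members, lists and tests were chosen with earlier results of these data known. All 35 members are accounted for, and up to 4 called genes with the largest change are named per list. Named besides, after their values were seen, were DST, COL17A1, TLN1, ILK, POMT2, PLOD3, NID1, NID2, NTN4, COL4A1, COL4A2 and COL4A6. Overlaps are named for members where the other gene had at least 10% of the member's mean count; genes of the lists were not checked. Figures were drawn with matplotlib 3.10.9.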

Additional observations from a re-analysis of the deposited data

How the results depend on the processing

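No integrin was called higher under any of the 18 alternatives, and ITGA10, ITGB4, ITGB5, ITGB8, LAMA5 and LAMB1 were called lower under all that tested them. Of 489 fits of single members, 460 kept direction and call, 24 lost the call, 3 gained one and 2 turned round: LAMB3, not called, had a log2 fold change of -0.01 without CMR library 3 and of -0.17 with control library 1 as the only control (0.36 at most with 1 library left out). With 1 library left out, calls ran from 7 to 10 for integrins lower, 3 to 5 for laminins lower, 0 to 1 for laminins higher, 2 to 5 for ligands higher, 3 to 5 for ligands lower, 3 to 6 for trafficking genes higher, 1 to 3 for assembly modifiers higher and 0 to 1 for other basement membrane genes higher. With control library 1 as the only control, an alternative chosen after seeing the data, calls were 4 integrins and 2 laminins lower, 0 focal adhesion adaptors higher and 7 lower, 1 ligand higher and 1 lower, 2 trafficking genes higher and 0 lower, 0 assembly modifiers higher and 1 lower, 1 other basement membrane gene lower, and 1476 genes higher and 929 lower over the whole table; fewer samples enter that fit. DESeq2 called 1 laminin and 1 other basement membrane gene higher. Under upper-quartile scaling, where the median shift in log2 fold change over genes was -0.129, calls were 3 trafficking genes and 1 assembly modifier higher. The cause was not tested. Ligands called lower numbered 3 without a filter, with a mean of at least 1 FPKM, and with limma on log2(FPKM + 1) or log2(FPKM + 0.1), and hemidesmosome genes called lower numbered 3 with a mean of at least 1 FPKM, where fewer genes were tested. Same-numbered CMR and control libraries deviated together with r of 0.034, 0.044 and 0.052, too weakly to pair them; with the replicate block 9 integrins and 3 laminins were called lower, and ITGA6 (0.0740), ITGB7 (0.0665) and LAMC1 (0.0521) lost the call by edgeR's adjusted p. Members with at most 12 counts in any library did not pass the filter of the main fit, and a change in them may be missed at this depth.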

Other observations

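Of 18 tested genes of integrin trafficking and inactivation, 5 were higher and 5 lower with CMR, 27.8% each, not far from the 20.5% and 18.1% of all genes, with a median log2 fold change of -0.03. Without control library 1 the number higher was 3. SLC3A2, the heavy chain of amino acid transporters that also binds integrin beta tails, had 578, 540 and 575 normalised CPM in the CMR libraries, against 132, 127.5 and 127 in control (edgeR log2 fold change 2.13 ± 0.07 SE, adjusted p = 2.69e-05). DAB2, an endocytic adaptor that takes up integrins, had 30.4, 37.6 and 45.0 normalised CPM with CMR, against 13.9, 14.6 and 13.9 in control (edgeR log2 fold change 1.41 ± 0.16 SE, adjusted p = 0.000685). CD9, a tetraspanin found with integrins, had 74.1, 62.9 and 51.2 normalised CPM with CMR, against 112, 113 and 109.5 in control (edgeR log2 fold change -0.83 ± 0.14 SE, adjusted p = 0.00313). TSPAN4, another tetraspanin, had 20.4, 13.9 and 11.4 normalised CPM with CMR, against 40.8, 42.7 and 38.9 in control (edgeR log2 fold change -1.42 ± 0.22 SE, adjusted p = 0.00217).

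Genes that modify laminin, its receptor dystroglycan or matrix proteins gave 4 lower and 2 higher of 9 tested, and 1 higher without control library 1 or control library 2. POMGNT1 and POMT1, glycosyltransferases of the dystroglycan sugar that binds laminin, had log2 fold changes of -0.94 and -0.80 (edgeR adjusted p = 0.00138 and 0.00347). COLGALT1, a collagen galactosyltransferase, had one of -0.61 (edgeR adjusted p = 0.00489). BMP1, a protease that trims laminin chains, had one of -0.64, a call (edgeR adjusted p = 0.0467) lost without control library 1 (0.160) and in 4 other fits that left out 1 library. The 2 that rose were POMT2 (log2 fold change 0.59, edgeR adjusted p = 0.0068) and PLOD3 (0.44, edgeR adjusted p = 0.017). Both were named after their values were seen. The call on PLOD3 was lost without control library 1 (0.0714) or control library 2 (0.0582).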
